A study of Drosophila melanogaster with 3 samples.

Results

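The genes that encode translation initiation factors in Drosophila melanogaster were examined for binding of CG18764 at their promoters. Members were all protein-coding genes whose symbol starts with eIF in the Ensembl BDGP6 gene models, which gave 44 of 13968 protein-coding genes. They fell into 5 eIF2 genes (eIF2A, eIF2alpha, eIF2beta, eIF2gamma and eIF2D), 5 eIF2B genes, 16 eIF3 genes, 13 eIF4 genes, 2 eIF5 genes (eIF5 and eIF5B) and 3 others (eIF1, eIF1A and eIF6). Binding had been mapped by chromatin immunoprecipitation and sequencing with an antibody to GFP. The chromatin came from whole embryos of both sexes, 0 to 16 h old, of 1 transgenic line in which CG18764 carries GFP at its C terminus. CG18764 belongs to the ZAD zinc-finger proteins. The 3 samples are biological replicates of this 1 group. No control samples are among the data used here, so no condition was compared with another and no test between groups was made. A GFP fusion expressed from a transgene stands in for the native protein, and whole embryos mix all tissues and many stages.

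Initiation factors bring the small ribosomal subunit, the initiator tRNA and the mRNA together and let the large subunit join once the start codon is found. The GTPase eIF2 carries the initiator tRNA and is recharged with GTP by its exchange factor eIF2B, a step that stress kinases block by phosphorylating eIF2alpha. The eIF3 complex is a scaffold on the small subunit, and the eIF4 factors recognise the cap, unwind the leader and bridge to the poly(A) tail. These proteins are needed in nearly every cell, and their genes are transcribed in most tissues, while some fly paralogues are restricted to the testis.

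The values used are peak summits on the dm6 build. The authors deposited a relaxed list of 30000 peaks for each replicate, another of 30000 peaks from the replicates pooled together, and an optimal list of 3754 peaks. By the deposited signal score, the optimal peaks are exactly the top 3754 of the pooled list, so a rank is the same in both. The score has no stated scale. It is the authors' own value and was used only to rank peaks within a list, with rank 1 the highest. A gene was counted when a summit lay within 500 bp of any of its transcription start sites (TSS), and its highest such summit is the one described. Positions are in bp from the nearest TSS of the gene and are negative upstream. Sequencing depth is unknown, and the relaxed lists hold weak peaks by construction.

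An optimal summit was present at 12 of the 44 eIF genes (27.3%), against 17.9% of all protein-coding genes. The 12 genes were eIF1, eIF2A, eIF2Balpha, eIF2beta, eIF3a, eIF3c, eIF3d1, eIF3h, eIF3m, eIF4EHP, eIF5B and eIF6. In the pooled relaxed list 29 of the 44 (65.9%) had a summit, against 49.1% of all protein-coding genes. The whole lists of replicates 1, 2 and 3 reached 22, 28 and 34 eIF genes (50%, 63.6% and 77.3%), against 39.7%, 50.8% and 53.2% of all protein-coding genes. The eIF share was above the background in each of these lists, and replicate 3 reached the most genes and replicate 1 the fewest in both. At least 1 replicate had a summit at 39 eIF genes (88.6%), against 67.7% of all protein-coding genes, and all 3 replicates had one at 18 (40.9%), against 28.2%. No dm6 list had one at 5 eIF genes (11.4%), which were eIF3g2, eIF4E3, eIF4E4, eIF4E7 and eIF4H2, against 31.5% of all protein-coding genes.

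The strong peaks of single replicates gave smaller counts than their whole lists. When each replicate was taken to its 3754 highest peaks, replicates 1, 2 and 3 reached 9, 12 and 10 eIF genes (20.5%, 27.3% and 22.7%), against 17%, 17.6% and 18% of all protein-coding genes. Optimal summits found within 100 bp in the 3754 highest peaks of all 3 replicates were at 7 eIF genes (15.9%), against 11% of all protein-coding genes. These 7 were eIF1, eIF2Balpha, eIF3c, eIF3h, eIF4EHP, eIF5B and eIF6. With only 2 replicates required, the count was 8 without replicate 1, 8 without replicate 2 and 7 without replicate 3, against 13.1%, 12% and 12.4% of all protein-coding genes. Of the 100, 500 and 1000 highest optimal peaks, a promoter summit fell at 2, 4 and 5 eIF genes, where 0.773%, 3.26% and 6.01% of all protein-coding genes had one. Among genes with a summit the ranks were similar. The median optimal rank was 1584.5 over the 12 eIF genes and 1545 over all protein-coding genes, and the median pooled rank was 4546 over the 29 eIF genes and 5788 over all.

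**Figure D1:**
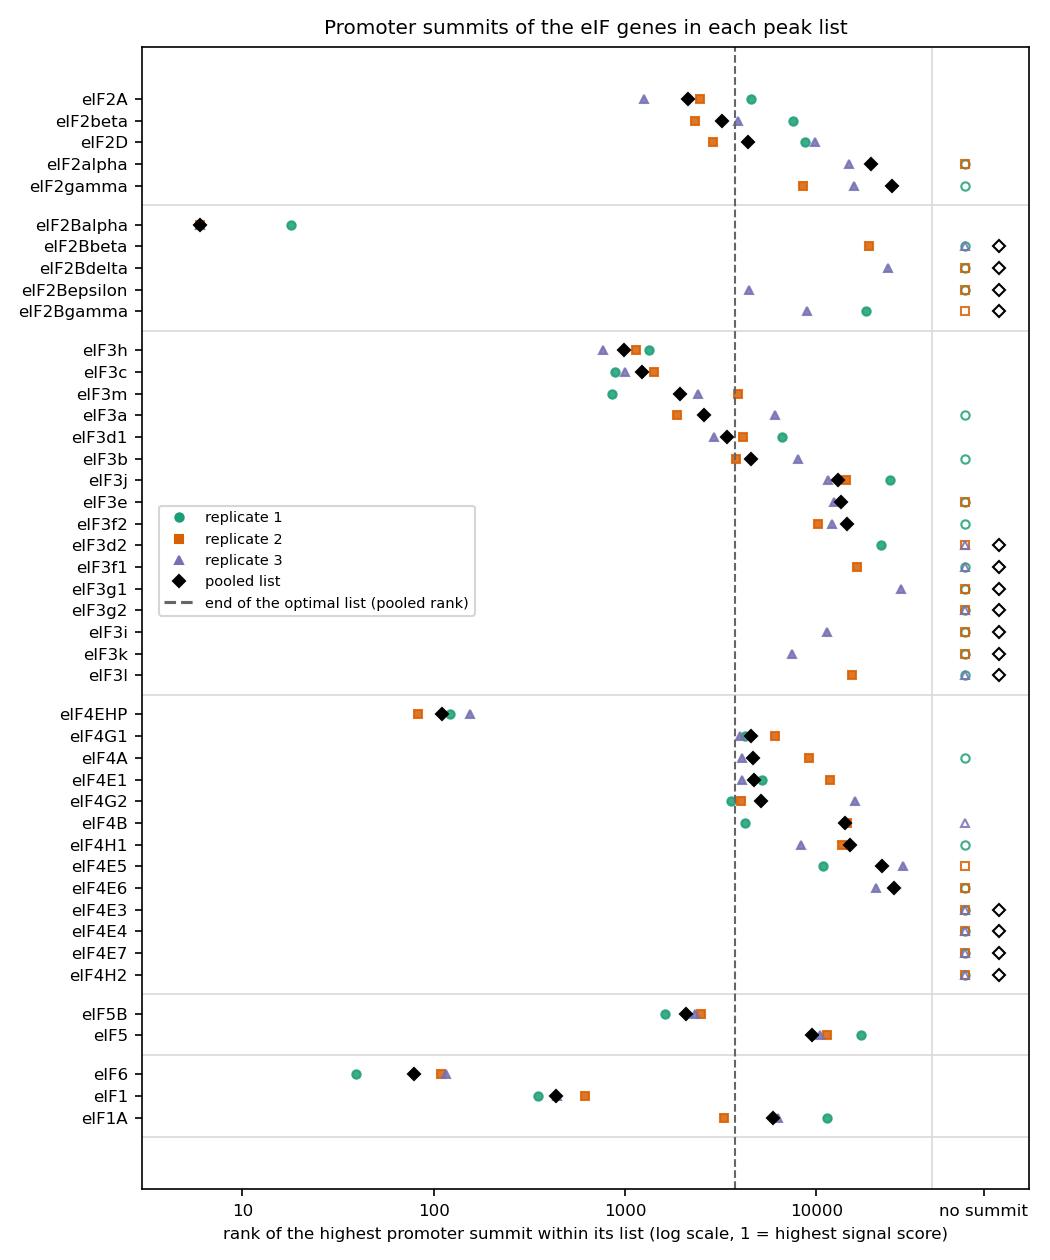
Rank of the highest promoter summit of each of the 44 eIF genes (rows, by group) in the 3 replicate lists and the pooled list, on a log scale where 1 is the highest signal score. Open symbols at the right mark lists with no summit within 500 bp, and the dashed line at rank 3754 is where the optimal list ends; eIF2Balpha, eIF6 and eIF4EHP lie far to the left in all 3 replicates.

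The groups differed in how far they were reached, and each is small. Optimal summits were at 2 of 5 eIF2 genes (40%), 1 of 5 eIF2B genes (20%), 5 of 16 eIF3 genes (31.2%), 1 of 13 eIF4 genes (7.69%), 1 of 2 eIF5 genes (50%) and 2 of the 3 other genes (66.7%). Of all protein-coding genes, 17.9% had one. The pooled relaxed list gave another order. It reached all 5 eIF2 genes, both eIF5 genes and all 3 others, 9 of 13 eIF4 genes (69.2%), 9 of 16 eIF3 genes (56.2%) and 1 of 5 eIF2B genes (20%). The eIF4 genes thus had the lowest share in the optimal list and a share above the 49.1% background in the pooled list. The eIF2B genes had 1 of the highest peaks of the list at 1 subunit gene and no pooled summit at the other 4. With 2 to 16 genes in a group, 1 gene moves a share by many percentage points, and no difference between groups was tested. The counts also depended on whether recovery in the replicates was required. Optimal peaks also found in the highest peaks of all 3 replicates were at 0 eIF2 genes and 2 eIF3 genes, against 11% of all protein-coding genes. With recovery in only 2 replicates required, the eIF2 count was 1 without replicate 1 and 0 without replicate 2 or 3. The eIF3 count was 2 without replicate 1, 3 without replicate 2 and 2 without replicate 3, while eIF2B, eIF4 and eIF5 kept 1 each. The same rule reached 13.1%, 12% and 12.4% of all protein-coding genes without replicates 1, 2 and 3.

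**Figure D2:**
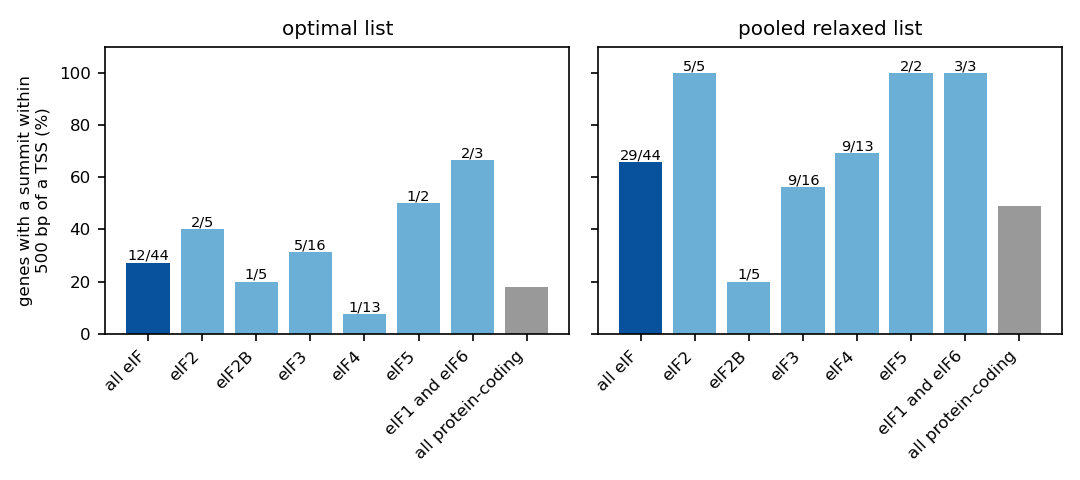
Percent of genes with a summit within 500 bp of a TSS in each eIF group, in the optimal and the pooled relaxed list, with the percent of all 13968 protein-coding genes (17.9% and 49.1%) drawn for each list. Numbers give genes with a summit of genes in the group; eIF4 is lowest in the optimal list at 1 of 13, and eIF2B is lowest in the pooled list at 1 of 5.

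The eIF2B genes encode the subunits of the exchange factor that reloads eIF2 with GTP. The gene for the alpha subunit, which helps eIF2B to sense phosphorylated eIF2, had the highest peak of the family. The eIF2Balpha summit (FBgn0039726, gene at chr3R:29934582-29935888, minus strand) ranked 18, 6 and 6 in replicates 1, 2 and 3, a mean of 10 ± 6.93 (SD, n = 3), and 6 in the optimal list. It lay at −27, −24 and −33 bp in replicates 1, 2 and 3, a spread of 9 bp. The summit at chr3R:29935919 lies between genes, in the interval that separates eIF2Balpha from Vps13B, a gene of the lipid-transfer Vps13 family on the other strand. It was −59 bp from the start of Vps13B, so both genes count it. The bases between the starts are printed whole because the strongest member summit falls inside them. Those between eIF2Bepsilon, the catalytic subunit gene, and Ocrl, an inositol polyphosphate phosphatase gene, are printed beside them as a like interval of the same complex that had no optimal or pooled summit. Both are from RefSeq's copy of the dm6 assembly and read 5′ to 3′ on the strand of the eIF gene, and capitals mark CGATA on either strand.
eIF2Balpha and Vps13B, chr3R:29935889-29935977 (minus strand): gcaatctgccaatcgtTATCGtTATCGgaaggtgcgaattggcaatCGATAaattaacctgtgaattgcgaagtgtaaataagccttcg
eIF2Bepsilon and Ocrl, chrX:1922875-1922980 (minus strand): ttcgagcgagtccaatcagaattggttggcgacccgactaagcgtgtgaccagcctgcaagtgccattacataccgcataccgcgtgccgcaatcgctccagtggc
The eIF2Balpha interval holds 3 copies of CGATA in 89 bases and has a GC content of 41.6%, with copies centred at −40, −34 and −10 bp from the summit. The eIF2Bepsilon interval holds none in 106 bases and has a GC content of 57.5%. These are the letters of 2 intervals and carry no test. Of the eIF2B genes without an optimal or pooled summit, eIF2Bbeta and eIF2Bdelta had CGATA within 100 bases of the most upstream TSS. The eIF2Bgamma and eIF2Bepsilon genes did not. The eIF2Bdelta gene also faces another gene, with starts 58 bp apart. The printed eIF2Bepsilon interval is thus not the only short one without an optimal or pooled summit. GGTCACAC, part of the M1BP motif, was within 100 bases of the eIF2Bepsilon start.

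The other 4 subunit genes of eIF2B were reached by single replicates or weakly. A summit at eIF2Bepsilon was in replicate 3 alone, at rank 4461 and −124 bp. At eIF2Bgamma, its catalytic partner, there were summits in replicate 1 (rank 18219) and replicate 3 (8908), at 146 and −441 bp, so the replicates did not share a site. Summits at eIF2Bdelta (rank 23719 in replicate 3) and eIF2Bbeta (18915 in replicate 2) were in 1 replicate each. The eIF2Bbeta gene is divergent from Ugalt, the UDP-galactose transporter gene, with 719 bp between their starts. The peak ranked 4 in the optimal list lay in that interval at chrX:2703885, beside the Ugalt start and −686 bp from eIF2Bbeta. It ranked 5, 4 and 3 in replicates 1, 2 and 3. This summit lies just outside the 500 bp limit, and it is the closest optimal summit to any eIF gene not counted; the next were at −1272 bp from eIF2Bgamma (rank 1402), 1358 bp from eIF3g1 (1562) and −1613 bp from eIF2D (3415).

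**Figure D3:**
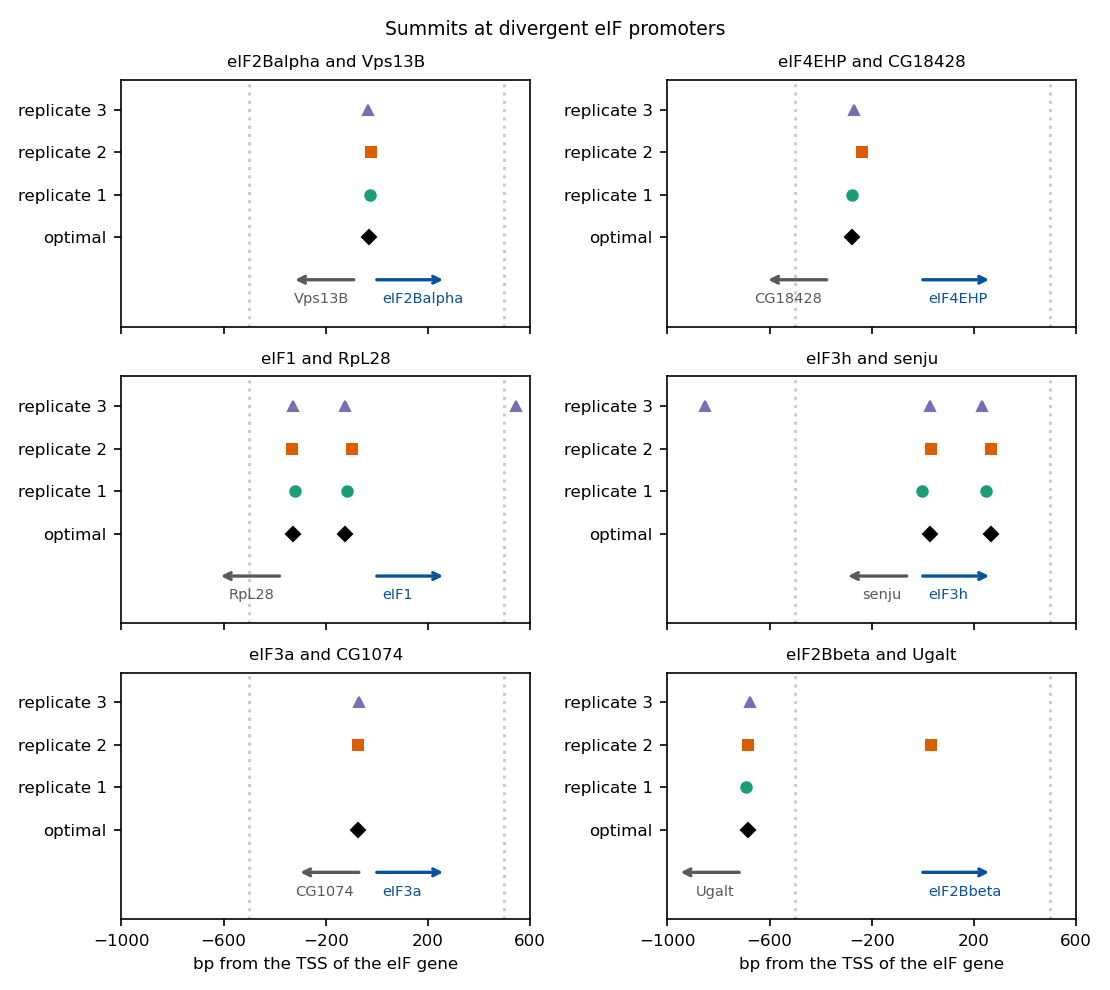
Summits in the optimal list and the 3 replicate lists around 6 divergent eIF starts, in bp from the start of the eIF gene; arrows show the direction of each gene, dotted lines the 500 bp limit. Summits lie within 40 bp of each other across replicates at eIF2Balpha, eIF4EHP and the upstream site of eIF1, replicate 1 has none at eIF3a, and the strong peak between eIF2Bbeta and Ugalt lies at −686 bp, beside Ugalt.

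The eIF2 genes encode the carrier of the initiator tRNA together with alternative carriers. Of its 3 subunits, an optimal summit was found at eIF2beta alone. The eIF2beta summit (FBgn0004926) at chr3L:12527030 ranked 7548, 2322 and 3879 in replicates 1, 2 and 3 and 3210 in the optimal list, at −299 bp. Its replicate positions were −391, −299 and −299 bp, so replicate 1 had its summit elsewhere in the promoter. The summit of eIF2alpha, the subunit phosphorylated under stress, ranked 19382 in the pooled list and lay at −57 bp. Of the replicates, only replicate 3 had a summit at this gene (rank 14879), on the other side of the TSS at 45 bp. The summit of eIF2gamma, the GTPase subunit, ranked 24711 in the pooled list and also reached the starts of Su(var)3-9, a histone methyltransferase gene, and Set, a histone chaperone gene. Replicates 2 and 3 had eIF2gamma summits at ranks 8516 and 15723 and replicate 1 had none. These lay at chr3R:15263502 and chr3R:15263017, on either side of the pooled summit at chr3R:15263249 and near different TSS positions of the gene, so they were not 1 site. Of the 3 subunit genes, eIF2beta ranked highest in each replicate that reached more than 1 of them.

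The 2 genes for proteins that act beside the eIF2 trimer ranked higher in the pooled list than eIF2alpha and eIF2gamma. The eIF2A summit (FBgn0037135), at a gene for a protein that in mammals can deliver initiator tRNA without eIF2, ranked 4572, 2452 and 1259 in replicates 1, 2 and 3, a mean of 2761 ± 1678, and 2121 in the optimal list. It lay at −57 bp at chr3L:21824908, inside the 5′ UTR of a transcript that starts further upstream. The replicate positions were −53, −57 and −5 bp. The summit of eIF2D, whose mammalian protein acts in ribosome recycling and reinitiation, was the highest of all members outside the optimal list, at pooled rank 4393. It ranked 8766, 2870 and 9878 in replicates 1, 2 and 3, yet lay at −171, −176 and −175 bp, a tight position at uneven rank.

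The eIF1, eIF1A and eIF6 genes make up the remaining group. The protein eIF1 holds the scanning ribosome open until the start codon is paired. Its highest summit (FBgn0035423, at chr3L:3223014) ranked 350, 614 and 440 in replicates 1, 2 and 3, a mean of 468 ± 134, and 434 in the optimal list. It lay at −320, −331 and −327 bp in the replicates. That site is −54 bp from RpL28, a ribosomal protein gene on the other strand, and so lies nearer to RpL28 than to eIF1, and it also reaches the small nucleolar RNA gene snoRNA:Or-CD11a. A second optimal summit at −126 bp, nearer to eIF1, ranked 2844 in the optimal list and 2875, 2868 and 5218 in replicates 1, 2 and 3. The 150 bases beside the RpL28 start are printed because they hold the stronger summit and a complete DRE, the sequence TATCGATA. They are read on the strand of eIF1, and the DRE is in capitals.
eIF1 and RpL28, chr3L:3222961-3223110 (plus strand): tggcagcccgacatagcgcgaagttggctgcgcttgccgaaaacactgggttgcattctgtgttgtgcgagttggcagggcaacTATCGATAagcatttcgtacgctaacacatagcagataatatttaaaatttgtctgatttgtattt
The DRE is centred at 35 bp from the summit, towards eIF1. The eIF1A gene, whose product works with eIF1 on the small subunit, had no optimal summit. Its pooled summit ranked 5938 and was shared with Vps39. The highest summits of replicates 1, 2 and 3 ranked 11309, 3301 and 6276. These lay at −147, −54 and −400 bp. Replicate 3 had a second, lower summit at −190 bp (rank 18062), nearer to those of the other replicates.

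The protein eIF6 keeps the large subunit from joining too early. Its summit (FBgn0034915, at chr2R:23850416) ranked 39, 109 and 116 in replicates 1, 2 and 3, a mean of 88 ± 42.6, and 79 in the optimal list. It lay at −115 bp in the optimal list and at −106, −113 and −130 bp in the replicates. The position is also 86 bp inside the antisense RNA gene asRNA:CR45928, so the peak cannot be given to 1 of the 2 starts.

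The eIF3 genes encode the largest initiation complex, built on a core of subunits with PCI or MPN domains. Optimal summits were at 4 of the 9 genes for PCI or MPN subunits (44.4%) and at 1 of the 7 genes for the other subunits (14.3%), against 17.9% of all protein-coding genes. The pooled list gave 6 of 9 (66.7%) and 3 of 7 (42.9%), against 49.1%. Both sets are small, and the difference between them was not tested. Of these 5 genes with an optimal summit, eIF3c and eIF3h were the ones found in the highest peaks of all 3 replicates. Of the PCI and MPN subunits, eIF3h had the highest summit. It ranked 1333, 1137 and 768 in replicates 1, 2 and 3, a mean of 1079 ± 287, and 982 in the optimal list. The site (FBgn0022023, at chr2L:5052512) lay 268 bp downstream of the start, in an intron of eIF3h, in a peak only 117 bp wide. A second optimal summit lay at 29 bp and ranked 1476, and ranked 4520, 1510 and 950 in replicates 1, 2 and 3. The neighbour senju starts 63 bp away on the other strand and is also reached. The eIF3h gene was the only 1 of the 12 whose highest optimal summit was downstream of its nearest TSS.

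The eIF3a gene encodes a PCI scaffold subunit and had a summit that was missing from 1 replicate. It ranked 1870 in replicate 2, 6048 in replicate 3 and 2598 in the optimal list, and replicate 1 had none. Both replicates with a summit placed it within 2 bp of each other, at −73 and −71 bp. The site (FBgn0037249, at chr3R:4433968) is 3 bp inside CG1074, in its 5′ UTR, and 73 bp from the start of eIF3a. The bases between the starts are printed whole because the summit lies 4 bp beyond their CG1074 end. They are read on the strand of eIF3a, with CGATA on either strand in capitals.
eIF3a and CG1074, chr3R:4433896-4433964 (minus strand): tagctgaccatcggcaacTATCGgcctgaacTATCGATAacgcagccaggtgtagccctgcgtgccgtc
This interval holds 3 copies of CGATA, of which a pair overlap in a DRE centred at 39 bp from the summit, and has a GC content of 58%. The eIF2Balpha interval also holds 3 copies, none of which overlap. Any relation between copies and rank was not tested.

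The summit of eIF3c, the other PCI scaffold subunit, ranked next to that of eIF3h (FBgn0034258, at chr2R:17665651). It ranked 887, 1419 and 1004 in replicates 1, 2 and 3, a mean of 1103 ± 280, and 1221 in the optimal list, and it reached no other protein-coding start. Its position was −27 bp in the optimal list and −55, −3 and −101 bp in replicates 1, 2 and 3. The eIF3m summit (FBgn0033902, at chr2R:14164899) varied more, at ranks 857, 3885 and 2393, a mean of 2378 ± 1514, and 1948 in the optimal list. It was shared with CG8323. Its positions were −83, 64 and −72 bp in replicates 1, 2 and 3, so the highest of replicate 2 was on the other side of the TSS. Replicate 2 also had a lower summit upstream, at −165 bp (rank 5613).

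Among the other subunits, eIF3d1 alone had an optimal summit. The protein eIF3d can bind the cap in mammals. The eIF3d1 summit (FBgn0040227, at chr3R:23680025) ranked 6641, 4124 and 2928 in replicates 1, 2 and 3, a mean of 4564 ± 1895, and 3400 in the optimal list, at −14 bp. Replicates 1 and 2 ranked it beyond 3754, and replicate 3 within it. The eIF3b summit, at the gene of the RNA-binding subunit, had a pooled rank of 4546. It was shared with Patronin, a microtubule minus-end gene, and ranked 3820 and 8009 in replicates 2 and 3. Replicate 1 had none at eIF3b. The summit of eIF3j, at the gene of a loosely held subunit, had a pooled rank of 13031. Its highest summits ranked 24116, 14209 and 11550 in replicates 1, 2 and 3 and lay at chr2R:9969249, chr2R:9968941 and chr2R:9969007, with that of replicate 1 set apart. The summit of eIF3e, a PCI subunit gene, had a pooled rank of 13511 and was in replicate 3 alone (rank 12412). That of eIF3f2, an MPN subunit gene, had a pooled rank of 14530, at −117 bp. Replicates 2 and 3 had eIF3f2 summits at ranks 10182 and 12103. These lay at −250 and −90 bp, so that of replicate 2 was set apart. Of the eIF3 genes outside the optimal list, eIF3b thus had the highest pooled summit. The eIF3i, eIF3k and eIF3g1 genes had a summit in replicate 3 alone, at ranks 11355, 7485 and 27605. The eIF3l and eIF3f1 genes had one in replicate 2 alone, at ranks 15313 and 16299, and eIF3d2 in replicate 1 alone, at rank 21717.

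Fly initiation factors include duplicated genes, and several copies differed in their summits. The eIF3d1 gene had an optimal summit and eIF3d2 a summit in 1 replicate. The eIF3f2 gene had a pooled summit and eIF3f1 a summit in 1 replicate. A summit at eIF3g1 was in 1 replicate, and eIF3g2 had none in any list. The eIF4H1 gene had a pooled summit (rank 14926), shared with CG34015, and ranked 13643 and 8348 in replicates 2 and 3, while eIF4H2 had none in any list. The scaffold genes eIF4G1 and eIF4G2 both had a pooled summit, at ranks 4526 and 5152, and a summit in all 3 replicates. Replicate ranks were closer together at eIF4G1 (SD 1144) than at eIF4G2 (SD 7036). Among the genes of the cap-binding eIF4E family, eIF4E1, the main form, had a pooled summit at rank 4697, and ranked 5169, 11747 and 4077 in replicates 1, 2 and 3. The eIF4E5 summit ranked 22132 in the pooled list, in a coding exon of the gene at 228 bp. Replicate 1 had a summit there (rank 10785, 224 bp), and that of replicate 3 lay elsewhere, at −31 bp (rank 28256). The eIF4E6 summit ranked 25470 in the pooled list, was shared with CG1951 and was in replicate 3 alone (rank 20431). The genes eIF4E3, eIF4E4 and eIF4E7 had none in any list, so the summit of eIF4E1 stood highest in this family after that of eIF4EHP.

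The eIF4 genes had 1 strong summit, at eIF4EHP. This gene encodes a cap-binding protein that, unlike eIF4E1, does not bind eIF4G and represses translation, among others of maternal mRNAs in the fly embryo. Its summit (FBgn0053100, at chr3R:24109239) ranked 122, 83 and 154 in replicates 1, 2 and 3, a mean of 119.7 ± 35.6, and 110 in the optimal list. It lay at −279, −239 and −270 bp in the replicates. The site is −97 bp from CG18428, which starts 376 bp away on the other strand, and so is nearer to CG18428. When each summit counted only for the nearest protein-coding TSS, no eIF4 gene had an optimal summit. The 150 bases beside the CG18428 start are printed on the strand of eIF4EHP because they hold the summit and are the most A- and T-rich of the member sites, with TATAAA on either strand in capitals.
eIF4EHP and CG18428, chr3R:24109186-24109335 (minus strand): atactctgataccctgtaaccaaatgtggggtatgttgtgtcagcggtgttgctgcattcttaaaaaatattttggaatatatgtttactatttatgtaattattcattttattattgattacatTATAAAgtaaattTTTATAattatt
The GC content of these bases is 24.7%, and that of the bases within 100 of the summit is 26.9%. Both TATAAA copies lie towards eIF4EHP from the summit, centred at 32 and 45 bp.

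The other eIF4 genes with a summit all ranked past the optimal list. The scaffold gene eIF4G1, on chromosome 4, had a pooled rank of 4526, after eIF2D the highest outside the optimal list, and ranked 4219, 6077 and 3993 in replicates 1, 2 and 3. The helicase gene eIF4A (pooled rank 4688) ranked 9145 and 4075 in replicates 2 and 3 and had no summit in replicate 1. The highest summits of eIF4G2, a paralogue of eIF4G1, ranked 3577, 4053 and 15994 in replicates 1, 2 and 3 (pooled rank 5152). They lay at chr3R:23819318, chr3R:23819243 and chr3R:23818867, so the highest of replicate 3 was a separate site. Replicate 3 also had a lower summit near the others, at chr3R:23819380 (rank 19822). The pooled summit was that of replicate 1 and was shared with CG33111. The gene eIF4B, for the partner of the helicase, had a pooled rank of 14038, at −86 bp. Its summits in replicates 1 and 2 ranked 4256 and 14408, and replicate 3 had none. They lay at −91 and −256 bp, so that of replicate 2 was set apart from the pooled site. The summits of eIF4G1, eIF4A and eIF4E1, whose products form the cap-binding complex, thus lay between 4526 and 4697 in the pooled list, past the 3754 peaks kept as optimal.

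The eIF5 group holds the 2 factors that act when the ribosome reaches the start codon. The gene of the subunit-joining GTPase, eIF5B (FBgn0026259), had a summit at chr3L:3460718 that ranked 1610, 2481 and 2307 in replicates 1, 2 and 3, a mean of 2133 ± 461, and 2079 in the optimal list. It lay at −111, −172 and −141 bp from the nearest of its 2 TSS positions, inside the 5′ UTR of a transcript from the other. The gene for eIF5, which activates GTP hydrolysis by eIF2, had a pooled rank of 9479 and replicate ranks of 17030, 11422 and 10454. The highest summits lay at −307 and −349 bp in replicates 1 and 2 and at −46 bp in replicate 3, a separate site at which replicate 2 also had a lower summit (−34 bp, rank 19986). The eIF5 summit was shared with exd, a Hox cofactor gene, and CG46312.

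Optimal summits of the 12 genes lay close to and mostly upstream of the nearest TSS. The median position of the highest summit was −73.5 bp over the 12 eIF genes and −131 bp over all protein-coding genes with one. Of the 12, 11 lay upstream of the nearest TSS, as did 89.7% of all, and 8 lay within 150 bp, against 53.9% of all. Those of eIF2A and eIF5B were also inside the 5′ UTR of a transcript that starts further upstream. Over the optimal genes reached by all 3 replicates, positions were closest at eIF2Balpha (SD 4.58 bp, n = 3) and eIF1 (5.57 bp) and wider at eIF6 (12.3 bp), eIF3h (17.5 bp), eIF4EHP (21 bp) and eIF3d1 (21.7 bp). They varied most at eIF3m (81.9 bp). The tightest positions were not all at the highest ranks, since eIF2D, outside the optimal list, had an SD of 2.65 bp.

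**Figure D4:**
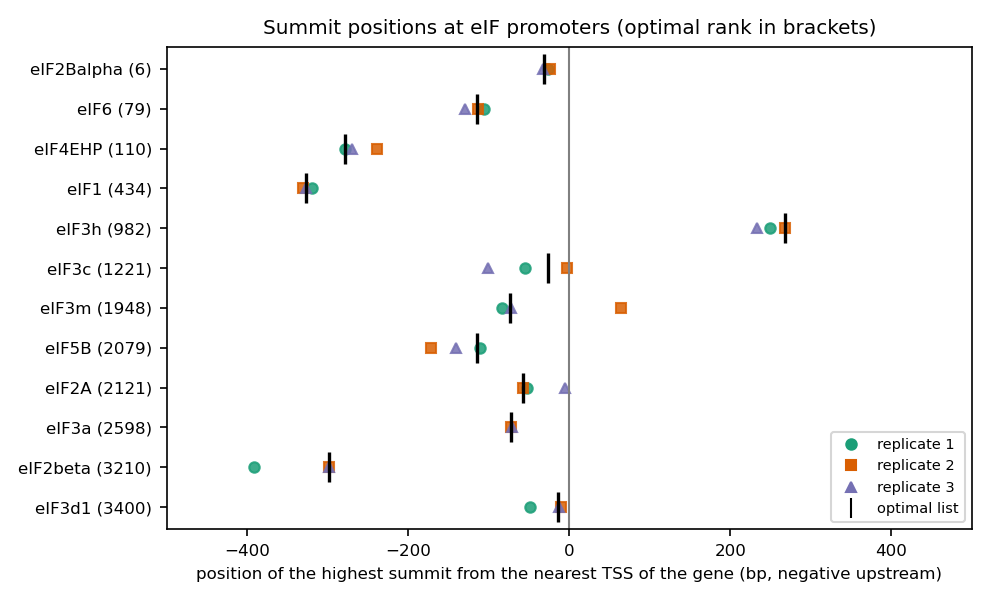
Position of the highest promoter summit of the 12 eIF genes with an optimal summit, in bp from the nearest TSS (negative upstream), in the optimal list and each replicate. All but eIF3h lie upstream in the optimal list, replicates overlap closely at eIF2Balpha and eIF1, and eIF3m and eIF2beta each have 1 replicate set apart.

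Many of these promoters face another gene. An opposite-strand protein-coding start lay upstream within 1000 bp at 21 eIF genes (47.7%), against 36.2% of all protein-coding genes. An optimal summit was at 8 of these 21 (38.1%), against 32.6% of all divergent genes, and at 4 of the 23 eIF genes that are not divergent (17.4%), against 9.57% of all such genes. The eIF share was thus above that of all genes in both classes, but the counts are small and the difference was not tested. The highest optimal summit also reached another protein-coding gene at 6 of the 12 eIF genes and at 60% of all protein-coding genes with one. A gene with more TSS positions has more chances to be counted. Optimal summits were at 7 of 29 eIF genes with 1 TSS position (24.1%, against 14% of all such genes) and at 5 of 15 with more (33.3%, against 28.9%). Which of the facing genes a shared summit belongs to cannot be told apart.

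Short sequences known from fly promoters were counted within 100 bases either side of each highest summit, on both strands. The DRE, bound by DREF, was in 3 of 12 eIF windows (25%; eIF1, eIF2A and eIF3a), against 8.41% of the 1891 optimal summits at protein-coding promoters. Its inner part CGATA, a core of the insulator protein BEAF-32 that every DRE contains, was in 8 of 12 (66.7%), against 41.3%. Within 100 bases of the most upstream TSS, CGATA was in 7 of 12 eIF genes with an optimal summit (58.3%), in 19 of 32 without one (59.4%) and in 39.3% of all protein-coding genes. The DRE was in 2 of 12 (16.7%) with one, 8 of 32 (25%) without one and 7.83% of all. At the starts, the eIF shares were thus close with and without a summit for CGATA, and no higher with one for the DRE.

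Other patterns were rarer or nearer to the background. The TATA box TATAAA was in 4 of 12 eIF summit windows (33.3%), against 38.4% of promoter summits. The GAGA repeat GAGAG was in 1 of 12 (8.33%; eIF3c), against 19.2%. GGTCACAC, part of the M1BP motif, was in 1 of 12 (8.33%; eIF2A), against 4.12%, and the E-box CACGTG was in none, against 2.38%. The core CTTT of the TCT initiator typical of ribosomal protein genes began within 5 bp of a TSS at 4 of 44 eIF genes (9.09%; eIF3f1, eIF3i, eIF3m and eIF4A), against 8.06% of all protein-coding genes. The GC content of the 12 windows was 39.8% ± 6.15 (SD across summits), with 26.9% at eIF4EHP the lowest and 47.8% at eIF2A the highest. All 1891 promoter summits averaged 35.2% ± 6.86, so the 2 ranges overlap.

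Genes that act beside the initiation factors were counted in 2 lists that were picked by hand with earlier results of these data known, so their shares describe these genes and no wider class. Of 19 partners and regulators of initiation, 10 had an optimal summit (52.6%) and 17 a pooled one (89.5%). The highest was at larp, whose protein binds mRNAs under TOR control, at rank 76 and −325 bp. Summits at Thor, the 4E-BP gene, Gcn2, a kinase of eIF2alpha, and PPP1R15, the phosphatase subunit that reverses it, ranked 1787, 2003 and 2704. The other 6 were Lk6 (2295), a kinase of eIF4E, mxt (2355), which binds eIF4E, pix (2588), a recycling factor, kra (2721), NAT1 (2915), an eIF4G relative, and the poly(A)-binding protein gene pAbp (3042). That of pAbp lay 479 bp downstream of its nearest TSS, close to the 500 bp limit. Neither cup, a partner of eIF4E in the ovary, nor DENR had a summit in the optimal or pooled list. Of 10 elongation and release factor genes, 6 had an optimal summit (60%), namely eRF3 (122), eEF1gamma (264), eEF5 (583), eRF1 (1084), eEF1alpha1 (1174) and eEF2 (2613), and 9 had a pooled one (90%). An optimal summit was at 27.3% of eIF genes and 17.9% of all protein-coding genes, and a pooled one at 65.9% and 49.1%. No difference between the lists was tested.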

How the data were processed

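Peak lists on dm6 were analysed for 3 biological replicates of 1 group. Per the labels, chromatin was sonicated to 200 to 800 bp. Per the deposited file listing, relaxed lists entered the irreproducible discovery rate procedure and peaks were called against 1 control dataset. The sources used here name no aligner, peak caller or threshold. Each peak carries a deposited signal score with no stated scale and a deposited −log10 q value, which was not used. The deposited summit offset gave each summit.

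Gene models came from Ensembl release 115 (BDGP6.54), and sequence came from RefSeq's copy of the same assembly, which is dm6. Coordinates are 1-based. Counting was done in Python 3.11.15 with numpy 2.4.6 and pandas 2.3.3, plots in matplotlib 3.10.9, and the counting was checked on simulated peaks. All eIF genes were named; full values were given for those with an optimal summit, and other families only where they share a summit or are in the lists of partners, elongation and release factors. Members and lists were chosen with earlier results of these data known. No test was run, since there is 1 group and genes are not replicates. The lists on dm3 were not used here.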

Additional observations from a re-analysis of the deposited data

How the results depend on the processing

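Keeping fewer peaks lowered the counts of all eIF, eIF2 and eIF3 genes, while eIF2B (1), eIF4 (1) and the group of eIF1 and eIF6 (2) kept theirs under those rules. Of all 44 eIF genes, 12 had an optimal summit. This count was 5 among the 1000 highest peaks (839 protein-coding genes, 6.01%) and 7, 5 and 7 for summits found in all 3 replicates within 100, 50 and 200 bp, against 1535, 1151 and 1633 protein-coding genes (11%, 8.24% and 11.7%). With recovery within 100 bp required in only 2 of the 3 replicates, it was 7 to 8 (12% to 13.1% of protein-coding genes). That is no lower than the 7 with all 3 required. For eIF2 (2) these were 0, then 0, 0 and 0, then 0 to 1, and a 250 bp window gave 1. For eIF3 (5) they were 1, then 2, 1 and 2, then 2 to 3. For eIF5 (1) the 1000 highest peaks and the 50 bp rule each gave 0. The eIF4 count of 1 became 0 in a 250 bp window and when a summit counted for the nearest TSS only. The eIF2B count of 1 became 2 in a 1000 bp window, with the peak beside Ugalt. Windows of 250 and 1000 bp gave 10 and 13 eIF genes in all (14.4% and 20.6% of protein-coding genes), and the nearest TSS rule gave 10 (13% of protein-coding genes). The mean rank of eIF1 was 468, and 3654 in a 250 bp window, which left eIF2beta, eIF4EHP and eIF5 with no mean. That of eIF1A was 6962, and 10891 in that window. Mean ranks that moved over 1.5 times without 1 replicate were those of eIF4G2 (7875, and 3815 without replicate 3), eIF2Balpha (10, and 6 without replicate 1) and eIF4E1 (6998, and 4623 without replicate 2). No paired analysis was possible because there is only 1 group. Depth is unknown, so a missing summit does not show absence of binding. The control behind the peak calls was not analysed here, and replicates share it. Replicates measure the spread between these samples of 1 line.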

Other observations

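Optimal peaks also lay inside 2 long members, away from the promoter sites described above, all in introns. The eIF4EHP gene, which spans chr3R:24063077-24108960, held optimal summits at chr3R:24106435 (rank 2150) and chr3R:24099130 (rank 1314). They were 2525 and 9830 bp from its TSS. The eIF5B gene, at chr3L:3428658-3460977, held optimal summits at chr3L:3438630 (rank 1789) and chr3L:3432842 (rank 1788). They were 21973 and 27761 bp from the nearest TSS of the gene. Both were thus above the promoter summit of eIF5B, which ranked 2079, while both intronic summits of eIF4EHP were below its promoter summit.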
